A study of Mus musculus with 8 samples.

Results

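The tumour necrosis factor (TNF) and TNF-receptor superfamily was followed in BMiFLT3 (15-3) cells, a mouse pro-B line derived from a B-cell precursor acute lymphoblastic leukaemia, infected with a retrovirus for blue fluorescent protein (BFP) as control or for the transcription factor Klf2. The deposited column names carry BFP in both groups, so the Klf2 construct may hold it too, and the labels give no time after infection, age or strain. The members were the rows of the gene table whose name begins with Tnfrsf or Tnfsf, together with Tnf, Lta, Ltb, Ltbr, Cd27, Cd40, Cd70, Fas, Fasl, Eda2r and Relt, which gave 43 rows for 42 genes among 38918 rows in all. Poly(A) RNA was sequenced in 1 library per construct on 4 lanes each. Of the 43 rows, 17 reached 1 CPM (exon read counts per fixed library size, with the libraries scaled to each other by the trimmed mean of M values, TMM) in at least 1 library.

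TNF-family ligands are mostly trimeric membrane proteins, some of them shed or secreted, and they act by clustering receptors on neighbouring cells. Receptors with a cytoplasmic death domain can recruit FADD and caspase-8, while the others bind TRAF adaptors and lead to the kinases that release NF-kB. In the B lineage the family is best known for lymphotoxin and for TACI and BAFF-R, the receptors of the B-cell survival factors BAFF and APRIL. Klf2 is a zinc-finger factor of the KLF family, whose members recognise the CACCC core.

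The 4 promoters below are shown because Tnfsf11 had the largest ratio between the libraries, and because Lta, Tnf and Ltb lie side by side on chromosome 17 and had ratios on both sides of 1. Each is the stretch of 250 bases before the RefSeq start site in GRCm38.p6, read 5′ to 3′ on the strand of the gene: chr14:78308044-78308293, minus strand, for Tnfsf11, chr17:35205352-35205601, minus strand, for Lta, chr17:35202008-35202257, minus strand, for Tnf, and chr17:35194257-35194506, plus strand, for Ltb. Capitals mark CACCC on either strand and, in Ltb, the kappa-B site of the immunoglobulin kappa enhancer, which stands there as its reverse complement.
Tnfsf11: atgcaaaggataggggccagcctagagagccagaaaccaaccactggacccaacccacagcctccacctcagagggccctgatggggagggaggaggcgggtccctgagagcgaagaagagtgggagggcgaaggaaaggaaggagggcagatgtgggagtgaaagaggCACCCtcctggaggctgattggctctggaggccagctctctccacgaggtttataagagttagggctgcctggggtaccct
Lta: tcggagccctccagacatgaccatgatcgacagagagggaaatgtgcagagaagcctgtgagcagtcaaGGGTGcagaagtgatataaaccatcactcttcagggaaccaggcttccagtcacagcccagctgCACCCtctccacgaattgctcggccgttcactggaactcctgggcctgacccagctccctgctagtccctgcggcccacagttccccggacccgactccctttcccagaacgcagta
Tnf: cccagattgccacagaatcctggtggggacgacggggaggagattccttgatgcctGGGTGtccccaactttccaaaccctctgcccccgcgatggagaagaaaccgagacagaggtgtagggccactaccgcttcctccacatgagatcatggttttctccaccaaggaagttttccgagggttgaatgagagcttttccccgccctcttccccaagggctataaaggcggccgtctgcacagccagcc
Ltb: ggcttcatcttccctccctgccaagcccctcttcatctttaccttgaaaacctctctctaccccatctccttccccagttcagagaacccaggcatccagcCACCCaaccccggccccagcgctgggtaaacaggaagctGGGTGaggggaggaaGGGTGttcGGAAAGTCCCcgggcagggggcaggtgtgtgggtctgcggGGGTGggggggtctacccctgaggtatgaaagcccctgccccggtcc
The Tnfsf11 stretch held 1 CACCC core, 81 to 77 bases before the start, Lta held 2, Tnf 1 and Ltb 4. Such cores are common: 52.0% of 32851 mouse promoter stretches of this length held at least 1, and so did 12 of the 15 stretches found for 14 of the 17 measured members. The kappa-B site was found in 0.140% of all stretches and in 1 of these 15, that of Ltb, 87 to 78 bases before the start. A second NF-kB pattern without free letters was in 0.0852% of all stretches and in 0 of the 15, and a looser one, which also covers the kappa-B site and its Ltb match, was in 3.86% and in 1. All were searched on both strands. A match of letters is a description, not a site of binding.

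Klf2 itself was at 113 CPM in the Klf2 library and 10.1 CPM in the BFP library, with lanes between 109 and 114 CPM and between 9.07 and 11.4 CPM. The libraries held 30133978 exon reads (BFP) and 30835450 (Klf2). On all reads the lanes of a library differed by somewhat more than sampling noise, with chi-square per degree of freedom of 1.30 (BFP) and 1.28 (Klf2). This was under the limit set, and as lanes of 1 library they counted as 1 sample. Each group being 1 library, differences could not be set against biological replicates, and p-values are left out. Intervals are exact 95% intervals of the ratio, Klf2 over BFP, from the reads of a gene. They cover counting error only, without the excess between lanes. The labelled cell type was checked on 14 pro-B markers in the table: Cd79a, Igll1 and Vpreb1 were between 488 and 962 CPM in both libraries, but Rag1 had 1 read in each, Rag2 had 7 and 4 reads, and Dntt 1 and 9. Of the 14, 11 passed 1 CPM, and the sum of all 14 ran from 4069 to 4125 CPM in BFP lanes and from 4188 to 4208 CPM in Klf2 lanes. Most of the 11 were lower in Klf2: 8 had an interval below 1 (37.3% of all genes did) and 3 had one above 1 (37.1%). Their ratios ran from 0.614 for Cd93 to 1.49 for Vpreb1, with a median log2(CPM + 1) difference of -0.16. Of 12 markers of T and NK cells only Trac, which encodes the constant region of the T-cell receptor alpha chain, passed 1 CPM, and Cd3e, Cd4, Cd8a, Cd8b1, Ncr1 and Prf1 were at 0. The 12 summed to 4.51 to 4.89 CPM in BFP lanes and 6.45 to 9.23 CPM in Klf2 lanes. Of 10 erythroid and stromal markers 1 passed 1 CPM, Pecam1, at 45.1 CPM in BFP and 58.4 CPM in Klf2. The 10 summed to 44.5 to 48.9 CPM in BFP lanes and 59.1 to 60.6 CPM in Klf2 lanes. Of 5 mature B-cell markers 3 did, Prdm1, Sdc1 and Cd22, with Ms4a1 at 0. The 5 summed to 21.6 to 24.9 CPM in BFP lanes and 31.6 to 35.8 CPM in Klf2 lanes. The 3 did not move together: Prdm1 had 33 reads in BFP and 3 in Klf2, while Sdc1 had 479 and 773 and Cd22 184 and 229. The 14 myeloid markers summed to 16.3 to 20.9 CPM in BFP lanes and 6.55 to 8.80 CPM in Klf2 lanes, with S100a8 and S100a9 at 0. Of them 4 passed 1 CPM. Fcgr1, the highest in BFP, had 166 reads in BFP and 24 in Klf2, and Tyrobp had 112 and 21. Under the floor, Lyz2, Emr1 and Fcgr3 went the other way, with 20, 10 and 13 reads in Klf2 against 11, 6 and 9 in BFP.

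The members lay on both sides of a ratio of 1. Among the 17 measured members, Tnfsf11 was at least 2-fold higher with an interval above 1, against 2.45% of 10850 genes measured in the same way, and Tnfrsf26 was at least 2-fold lower, against 5.67%. Each is 5.88% of the members. In either direction the count was 2 of 17, against 8.12% of all genes, and with numbers this small the share of members cannot be set apart from it. In bulk RNA, fewer cells of a type and less RNA per cell cannot be told apart. Both genes reached 1 CPM in 1 library only, so their presence among the measured members already required a difference, and the other 15 reached it in both. At any size of difference, 7 members had an interval above 1 (37.1% of all genes did), 8 had one below 1 (37.3%) and 2 spanned it. With total-read scaling the first count was 5, without Tnf and Tnfrsf13b, and on uniquely placed reads the second was 6, without Tnfrsf13c and Tnfrsf18. The median log2(CPM + 1) difference of the 17 was 0.09, with -0.01 over all genes. Without lane 1 of each library 18 rows passed the floor and their median was -0.10.

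**Figure D1:**
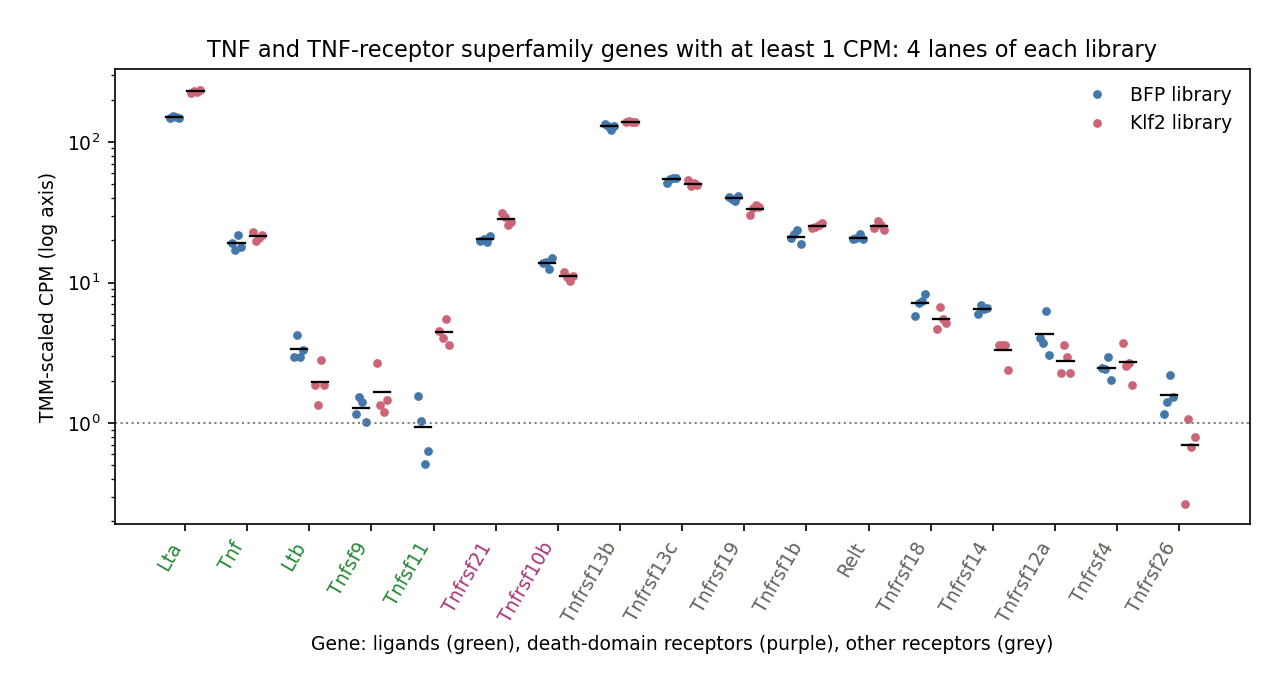
TMM-scaled CPM (log axis) of the 17 measured members by lane, 4 points for the BFP library and 4 for the Klf2 library, with the value of the summed lanes as a bar and 1 CPM as a dotted line. Lta and Tnfrsf13b stand highest, and for Tnfsf11 every Klf2 lane is above every BFP lane.

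**Figure D2:**
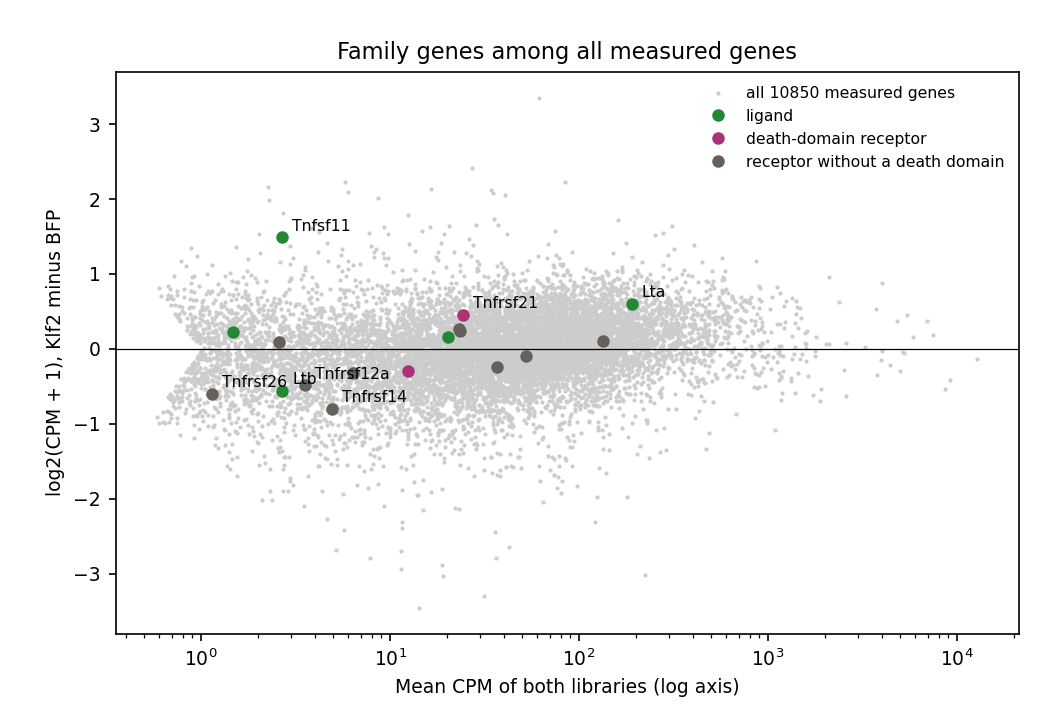
Difference in log2(CPM + 1), Klf2 minus BFP, against the mean CPM of both libraries (log axis) for all 10850 measured genes in grey and the family in colour. Tnfsf11 lies at 1.49 and Tnfrsf14 at -0.80, and the other members lie between.

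Of the 16 ligand rows 5 were measured, with 1 past the 2-fold rule as higher (2.45% of all genes), 0 as lower (5.67%), 3 intervals above 1 (37.1%) and 1 below (37.3%), counts too small to set apart from those shares. Tnfsf11 was the one past the rule, and Lta was the most abundant. Tnfsf11 encodes RANKL, the ligand of RANK, known for osteoclast formation and lymph node development (chromosome 14, 78277445 to 78308043, mm10). It was at 1.55, 1.03, 0.516 and 0.639 CPM in the BFP lanes and at 4.55, 4.02, 5.51 and 3.60 CPM in the Klf2 lanes, so every Klf2 lane was above every BFP lane. In summed reads this was 132 against 29, a ratio of 4.74 (3.15 to 7.35), and all of these reads were uniquely placed. For Tnfsf11 the fold in the authors' deposited table is 4.452. The level remained low per length, at a mean over lanes of 1.63 against 0.365 RPKM, which scales reads to exon length and library size. Left-out lanes moved the ratio between 3.79 and 6.01.

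Lta encodes lymphotoxin alpha, which is secreted as a trimer or held at the surface by lymphotoxin beta (chromosome 17, 35203165 to 35205351). It was at 147, 154, 152 and 147 CPM in the BFP lanes and at 225, 229, 226 and 236 CPM in the Klf2 lanes, again without overlap. The ratio of 1.52 (1.47 to 1.58) stayed under the 2-fold limit, and it was 1.43 with scaling by total reads. Per length Lta was the highest of all members in both libraries, at 94.9 and 136 RPKM, and it made up 85.5% of the summed ligand CPM in BFP and 88.4% in Klf2. The sum of markers of T and NK cells, which can express both ligands, was also higher in Klf2 lanes (6.45 to 9.23 against 4.51 to 4.89 CPM). Trac, the only one to pass 1 CPM, was at 6.96 CPM in Klf2 and 3.96 CPM in BFP. Cd3g and Klrb1c had fewer reads in Klf2, and Cd3e, Cd4 and Cd8a were at 0. The summed mature B-cell markers and the summed erythroid and stromal markers were higher in Klf2 lanes as well. Prdm1 and Cdh5, among others of these, had fewer reads in Klf2. The part of any of these cells in the values of Tnfsf11 and Lta was not tested.

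Its neighbours had lower ratios. Tnf, the gene of the founding cytokine, lies 1157 bases from Lta (chromosome 17, 35199381 to 35202007). Tnf was at 19.2, 17.0, 21.7 and 18.0 CPM in the BFP lanes and at 23.0, 19.8, 20.8 and 21.9 CPM in the Klf2 lanes, which overlap, with a ratio of 1.13 (1.01 to 1.26) whose interval reached 1 with total-read or DESeq2 scaling and when lane 1, 2 or 4 was left out. Ltb, the membrane anchor of the lymphotoxin complex (chromosome 17, 35194439 to 35196320), was lower, at 59 reads against 105. Its lanes ran from 2.97 to 4.25 CPM in BFP and from 1.34 to 2.82 CPM in Klf2, with a ratio of 0.585 (0.418 to 0.812). Without lane 3 the ratio of Ltb was 0.482, past the 2-fold limit, and without lane 2 it was 0.706, with an interval that reached 1. The intervals of Lta, Tnf and Ltb do not overlap each other. The summed myeloid markers were also lower in Klf2 lanes (6.55 to 8.80 against 16.3 to 20.9 CPM), though Lyz2, Emr1 and Fcgr3 had more reads in Klf2. The part of myeloid cells in the value of Ltb was not tested.

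Tnfsf9, which encodes the ligand of the T-cell costimulator CD137, had 50 reads against 40, and its interval spanned 1 (0.841 to 2.02). It overlaps Gm11110 on the opposite strand by 558 bases. The other 11 ligand rows were under 1 CPM. Tnfsf10, the gene of the death ligand TRAIL, had 17 reads in BFP and 10 in Klf2, which makes it 1 of the 2 rows nearest below the floor, with Cd40 at 29 and 17 reads. Tnfsf18, Tnfsf14, Tnfsf13 and Tnfsf13b, the last pair encoding APRIL and BAFF, had 1 to 3 exon reads where they had any. Cd70, Fasl, Tnfsf12, Tnfsf15, Tnfsf4 and Tnfsf8 had 0 exon reads in both libraries, though Tnfsf12 had 2 reads in BFP and 3 in Klf2 outside its exons. For 0 exon reads the upper limit is 0.0965 CPM for BFP and 0.100 for Klf2, taken as 3 reads.

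Of the 5 receptors with a death domain, 2 were measured, and they had ratios on opposite sides of 1. Tnfrsf21, or death receptor DR6 (chromosome 17, 43016555 to 43089188), was at 19.3 to 21.6 CPM in BFP lanes and 25.5 to 31.2 CPM in Klf2 lanes, with a ratio of 1.39 (1.25 to 1.54). Tnfrsf10b, the mouse receptor of TRAIL (chromosome 14, 69767472 to 69784403), was at 12.5 to 14.9 CPM in BFP lanes and 10.3 to 11.9 CPM in Klf2 lanes. Its ratio was 0.803 (0.693 to 0.929) on all reads and 0.720 (0.603 to 0.857) on uniquely placed reads alone, 70.9% of the total. Fas and Tnfrsf1a, the main death receptors for Fas ligand and TNF, each had 1 read in BFP and 0 in Klf2, and Tnfrsf25 had 0 in both. The decoy or soluble receptors were also near or at 0: Tnfrsf11b, which encodes the RANKL trap osteoprotegerin, and Tnfrsf23 had 0 exon reads, and the 2 rows of Tnfrsf22 had 4 and 5 exon reads and 0.

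The receptors of the BAFF system were the most abundant receptors and, on exon reads, differed little between the libraries. Tnfrsf13b, the gene of TACI (chromosome 11, 61126755 to 61149372), was at 134, 131, 122 and 129 CPM in the BFP lanes and 138, 141, 139 and 140 CPM in the Klf2 lanes. Its ratio was 1.08 (1.03 to 1.13), and 1.01, with an interval spanning 1, with scaling by total reads. From reads outside exons and across exon junctions its ratios were 0.807 and 0.754. Tnfrsf13c, the gene of BAFF-R (chromosome 15, 82221744 to 82224339), was at 51.4, 54.5, 55.7 and 55.8 CPM in the BFP lanes and 53.9, 48.4, 50.9 and 49.5 CPM in the Klf2 lanes, which overlap, with a ratio of 0.932 (0.869 to 0.9997). The interval spanned 1 on uniquely placed reads (0.872 to 1.004) and when lane 2, 3 or 4 was left out. Per length these genes followed Lta, at 39.8 and 23.6 RPKM in BFP. Tnfrsf17, the gene of the plasma cell receptor BCMA, had 2 and 3 reads. The ligand genes Tnfsf13b and Tnfsf13 had 4 exon reads each over both libraries, but Tnfsf13b had a further 26 reads in BFP and 31 in Klf2 outside its exons. Of the Tnfsf13 reads 0 were uniquely placed, and that gene overlaps Tnfsf12.

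Of the 10 measured receptors without a death domain, 0 were at least 2-fold higher (2.45% of all genes) and 1 was lower (5.67%), with 3 intervals above 1 (37.1%) and 6 below (37.3%), and Tnfrsf26 and Tnfrsf14 had the lowest ratios. Tnfrsf26, a receptor gene in the Tnfrsf22 and Tnfrsf23 cluster (chromosome 7, 143607685 to 143627845), was at 1.16, 1.42, 2.19 and 1.53 CPM in the BFP lanes and 0.267, 1.07, 0.672 and 0.800 CPM in the Klf2 lanes. No lane of one library reached the other, but the gene rests on 49 and 21 reads, with a ratio of 0.446 (0.254 to 0.758), and without lane 3 the ratio was 0.520, inside the 2-fold limit. Tnfrsf14, the gene of HVEM, a receptor of LIGHT and of the inhibitory protein BTLA (chromosome 4, 154922210 to 154928563), had 99 reads against 202 and a ratio of 0.510 (0.397 to 0.652), just inside the limit. It passed the limit at 0.479 with scaling by total reads, at 0.481 without lane 1 and at 0.493 without lane 3. Its lanes ran from 5.94 to 6.95 CPM in BFP and from 2.40 to 3.63 CPM in Klf2, without overlap. Tnfrsf12a, the gene of Fn14 (chromosome 17, 23675447 to 23677449), had 83 reads against 133, with lanes that overlap and a ratio of 0.649 (0.488 to 0.861). As with Ltb, the summed myeloid markers, though not every marker, moved in the direction of these 3 genes. Whether myeloid cells bear on these genes was not tested. With a limit of 1.5-fold, the lower members were Ltb, Tnfrsf12a, Tnfrsf14 and Tnfrsf26, 4 of 17 against 13.9% of all genes, and the higher ones Lta and Tnfsf11, 2 of 17 against 10.2%.

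Tnfrsf1b, the gene of the TNF receptor without a death domain (chromosome 4, 145213463 to 145246870), was at 18.8 to 23.6 CPM in BFP lanes and 24.5 to 26.5 CPM in Klf2 lanes, a ratio of 1.19 (1.07 to 1.32). Relt, a receptor of lymphoid tissue (chromosome 7, 100845848 to 100863446), was at 20.3, 20.9, 22.1 and 20.4 CPM in the BFP lanes and 24.3, 27.2, 25.8 and 23.6 CPM in the Klf2 lanes, without overlap, a ratio of 1.21 (1.09 to 1.34). Tnfrsf19, the gene of TROY (chromosome 14, 60963834 to 61046855), was at 40.4, 39.3, 37.9 and 41.2 CPM in the BFP lanes and 30.1, 33.9, 35.6 and 34.3 CPM in the Klf2 lanes. Its lanes did not overlap either, and its ratio was 0.843 (0.774 to 0.917). For all 3 genes the lanes did not overlap, though for Tnfrsf1b the difference between the libraries was smaller than the range of the BFP lanes, and the spread of lanes is technical only. Lanes of 1 library do not overlap those of the other for 11 of the 17 members, and for 62.9% of all measured genes.

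Tnfrsf18, the gene of the T-cell costimulator GITR (chromosome 4, 156026164 to 156028895), had 165 reads against 223 and a ratio of 0.770 (0.626 to 0.946), but 33.8% of its reads were uniquely placed, it overlaps Gm16008 on the opposite strand, and the interval on uniquely placed reads spanned 1 (0.507 to 1.05). Its neighbour Tnfrsf4, the gene of OX40, had 81 reads against 77, an interval of 0.791 to 1.52, and a ratio of 0.953 without lane 1. Cd40, a costimulatory receptor of mature B cells, was at 0.569 CPM against 0.933 CPM, just under the floor, where Tnfsf9 at 1.67 and 1.29 CPM lay just above it. Tnfrsf9 had 4 exon reads in each library, Tnfrsf8 had 1 against 3 and Ltbr 0 against 2, and Cd27, Eda2r and Tnfrsf11a had 0 exon reads.

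**Figure D3:**
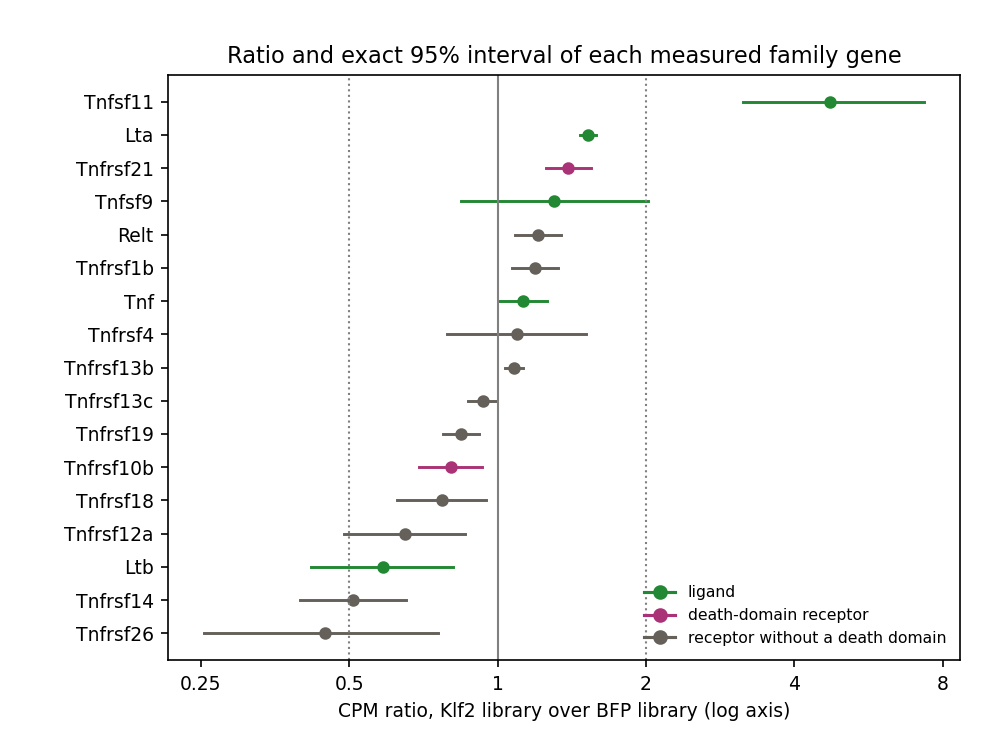
Ratio of CPM, Klf2 library over BFP library (log axis), with its exact 95% interval for each of the 17 measured members, coloured by role, and dotted lines at 2-fold. Tnfsf11 at 4.74 and Tnfrsf26 at 0.446 lie past the lines, and Tnfrsf14 at 0.510 lies at the lower line.

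For several measured members the exon reads of the partner ligand or receptor were few or 0. Tnfsf11 was found with 0 reads of its receptor Tnfrsf11a and 0 of its decoy Tnfrsf11b. For the lymphotoxin heterotrimer, Lta and Ltb had reads while their receptor Ltbr had 2 in BFP and 0 in Klf2. For TNF and the Lta trimer, Tnfrsf1b was at 21.3 and 25.3 CPM and Tnfrsf1a at 1 read in all. Tnfrsf14 was found with 2 reads of Tnfsf14, the gene of LIGHT, which is not its only partner. Tnfrsf12a was found with 0 of Tnfsf12, Tnfrsf4 with 0 of Tnfsf4 and Tnfrsf18 with 3 of Tnfsf18, while Tnfrsf10b had 27 reads of Tnfsf10 over both libraries.

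Gene reads not counted in exons and reads across exon junctions gave further values for the members. Over all genes their CPM ratios were 1.06 and 1.09. For Tnfsf11 they were 3.56 (1.83 to 7.43) and 4.16 (1.12 to 23.0), and for Lta 1.55 (1.39 to 1.73) and 1.29 (1.12 to 1.48). For Tnfrsf14 they were 0.480 (0.325 to 0.700) and 0.441 (0.295 to 0.648). For these genes the 3 kinds of read lay on the same side of 1.

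For Relt, Tnfrsf13b and Tnfrsf19 the intervals of exon reads and of reads outside exons did not overlap. Relt had 169 reads outside exons against 84, a ratio of 2.09 (1.60 to 2.75), above the interval of its exon ratio of 1.21 (1.09 to 1.34). Tnfrsf13b had an exon ratio above 1, but 436 against 562 reads outside exons, a ratio of 0.807 (0.711 to 0.916), and 213 against 294 junction reads, a ratio of 0.754 (0.629 to 0.902). Junction reads were 7.33% of Tnfrsf13b exon reads in BFP and 5.12% in Klf2, while over all genes they were 21.9% and 22.4%. A low share was not particular to this gene. Lta had 8.27% in BFP and 6.99% in Klf2, and Tnfrsf13c 3.85% and 3.43%, while Relt had 37.5% and 36.9%. Tnfrsf19 had an exon ratio of 0.843 and a ratio outside exons of 1.29 (1.03 to 1.60). Tnfrsf4 had 19 junction reads against 36, a ratio of 0.549 (0.298 to 0.983) that lay below its exon ratio of 1.09, with intervals that overlap. Under the floor, Cd40 had 2 junction reads against 18. All genes of this paragraph were singled out after their values were seen.

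**Figure D4:**
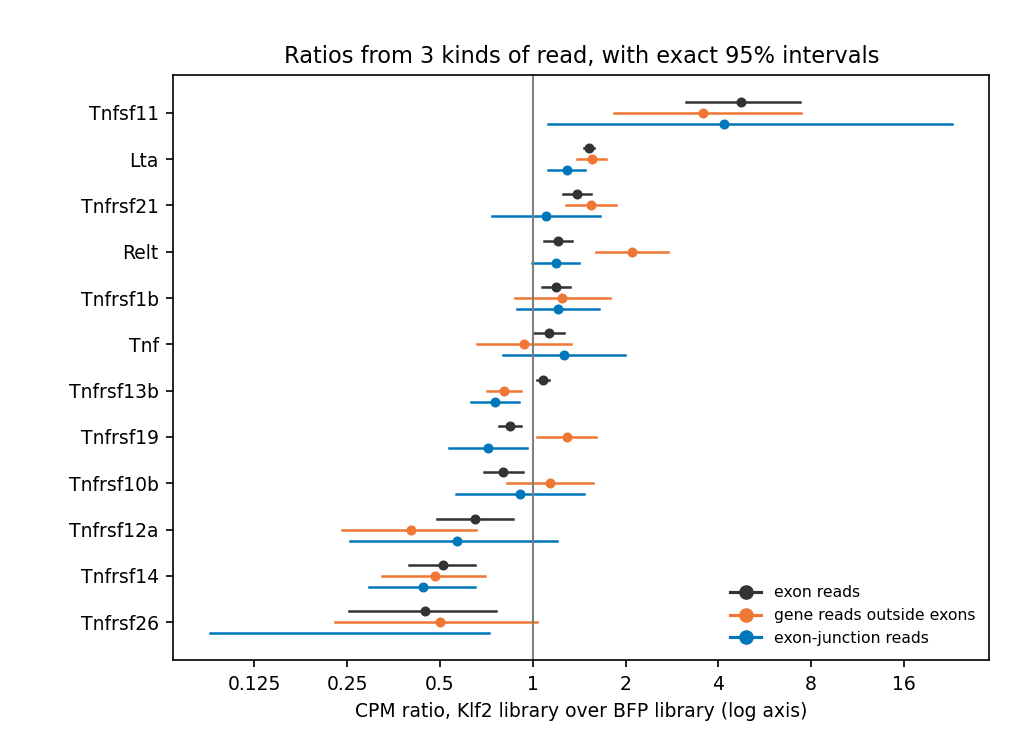
CPM ratio, Klf2 over BFP (log axis), with exact 95% intervals for exon reads, gene reads outside exons and exon-junction reads, for the 12 members with at least 20 reads outside exons and 7 junction reads. For Tnfrsf26, with 0 junction reads in Klf2, the line shows the upper part of the interval only. In Relt, Tnfrsf13b and Tnfrsf19 the intervals of exon reads and reads outside exons do not overlap.

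Downstream of the receptors, 2 genes passed the 2-fold rule, Mlkl as higher and Relb as lower. In the list of adaptors and the death complex, 1 of 21 measured genes was at least 2-fold higher (2.45% of all genes) and 0 lower (5.67%), with 5 intervals above 1 (37.1%), 9 below (37.3%) and a median log2 difference of -0.09. The gene past the limit was Mlkl, the executor of necroptosis, with 142 reads against 63 and a ratio of 2.35 (1.73 to 3.21). The ubiquitin ligase genes Birc2 and Birc3, which encode the inhibitor of apoptosis proteins of the TNF receptor complex, had ratios of 0.616 (0.557 to 0.680) and 0.620 (0.571 to 0.672). Traf4 had a ratio of 1.53 (1.44 to 1.62), Fadd had 242 reads in Klf2 and 249 in BFP (9.98% unique), and Casp8 was at 41.5 against 37.8 CPM. These last 2 were chosen after their values were seen, as the genes that link death receptors to caspases.

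Among 14 kinases and NF-kB subunits, 0 were at least 2-fold higher (2.45% of all genes) and 1 was lower (5.67%), with 2 intervals above 1 (37.1%), 8 below (37.3%) and a median of -0.18. Relb, the partner of p52 in the noncanonical pathway, had 268 reads against 787 and a ratio of 0.354 (0.307 to 0.408). Nfkb2, which encodes the precursor of p52, had 747 reads against 1541 and a ratio of 0.504 (0.462 to 0.551). Rel and Rela had ratios of 0.639 (0.585 to 0.697) and 0.692 (0.659 to 0.728). Map3k14, the kinase that starts this pathway below several of the receptors named above, had 291 reads against 260 and an interval that spanned 1 (0.982 to 1.38), a gene named after its values were seen.

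Of 11 measured feedback and response genes of NF-kB, 0 passed the 2-fold rule in either direction (8.12% of all genes), with 1 interval above 1 (37.1%), 6 below (37.3%) and a median of -0.15. Nfkbia, the inhibitor IkB alpha, had a ratio of 0.667 (0.599 to 0.743), Tnip2 of 0.701 and Gadd45b of 0.782, and Sod2, the mitochondrial superoxide dismutase, one of 1.46 (1.38 to 1.55). Of 8 genes for shedding and for control of TNF messenger RNA, 0 passed the rule, with 4 intervals above 1 (37.1%), 4 below (37.3%) and a median of -0.02. Rhbdf2, which brings the TNF-shedding protease ADAM17 to the surface, had a ratio of 1.64 (1.49 to 1.79), Elavl1 of 1.28, Zfp36l2 of 1.16 and Zfp36l1 of 0.614, the last with 11.3% of its reads uniquely placed. Of the 5 family genes outside the rule for members, the adaptor gene Edaradd was the 1 measured, at 26.2 against 23.5 CPM. The medians of these lists stand beside -0.01 over all genes, and the counts of calls in these short lists are not set apart from the shares over all genes.

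**Figure D5:**
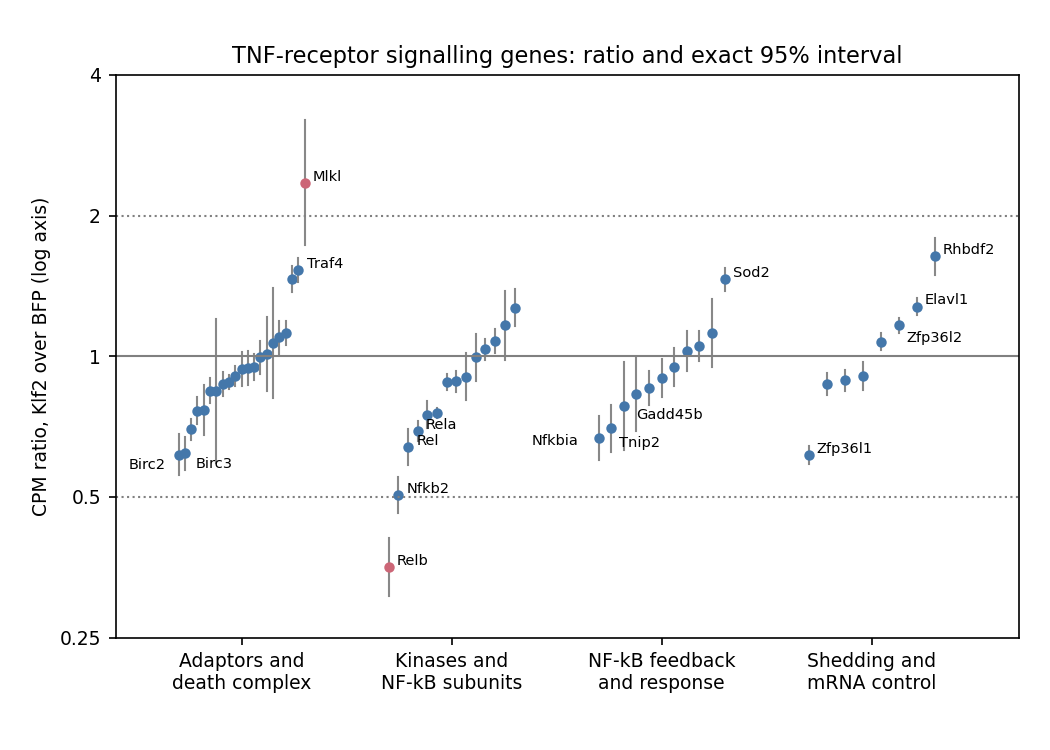
CPM ratio, Klf2 over BFP (log axis), with exact 95% intervals for the measured genes of 4 lists of TNF-receptor signalling, in order of ratio within a list. Genes past the 2-fold rule are red, Mlkl at 2.35 and Relb at 0.354, and up to 4 genes per list are named.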

How the data were processed

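The authors deposited 1 table of 38918 genes with, per the file headers, counts of exon reads, uniquely placed exon reads, gene reads and exon-junction reads for each lane, RPKM, and a signed fold score, the ratio of mean RPKM. The submitters' processing notes list CASAVA 1.8.2 and mm10. The aligner, counter and strandedness were not given in the sources used here. Which of the 2 library kits in the labels' protocols served for each library is not stated.

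Exon counts of the 4 lanes were summed, since chi-square per degree of freedom between lanes was 1.30 (BFP) and 1.28 (Klf2) on all reads and 1.03 and 1.04 on uniquely placed reads, under a limit of 1.5. CPM used TMM factors of 1.03 and 0.969 (edgeR 4.0.16, R 4.3.3). A gene passed at a ratio of at least 2 in either direction with the Clopper-Pearson interval excluding 1, and a floor of 1 CPM. The script was tested on simulated data. Reads without molecular identifiers give intervals for counting error only. Of the 17 measured members, 14 had at least 90% uniquely placed reads.

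Members and lists were chosen with earlier results of these data known. Every member with 1 CPM was named, and up to 4 genes of each signalling list by size of difference, those past the rule first. Alternatives were other scalings, read types, floors, a 1.5-fold limit, a pseudocount of 0.25 in place of 1, and each lane left out. Promoters are from RefSeq (GRCm38.p6).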

Additional observations from a re-analysis of the deposited data

How the results depend on the processing

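The count of members at least 2-fold higher stayed at 1, Tnfsf11, under other scalings, uniquely placed reads, the deposited RPKM, no floor and each lane left out. It was 0 with a floor of 5 CPM, which Tnfsf11 does not reach, and 2 with a limit of 1.5-fold. The count at least 2-fold lower was 2 with total-read scaling, 0 with the floor of 5 CPM, 4 with the limit of 1.5-fold, and ran from 1 to 2 with a lane left out. With the deposited RPKM it was 1, Tnfrsf14 in place of Tnfrsf26, whose RPKM is under 1. The median log2 difference of 0.09 was 0.020 with total-read scaling, 0.0037 on uniquely placed reads and -0.046 with no floor, and ran from -0.10 to 0.11 with a lane left out. Over all genes the median of -0.01 was -0.0895 with total-read scaling, 0.00039 on uniquely placed reads and -0.0095 with no floor. TMM raised every log2 ratio, before the pseudocount, by 0.0906 relative to total-read scaling, and a changed floor changes the genes counted. Other causes of these shifts were not tested. Chosen after seeing the data, the counts of intervals were also recomputed, except with RPKM. That above 1 ran from 5 to 7 with a lane left out and was 5 with total-read scaling and 6 with DESeq2 size factors. That below 1 ran from 6 to 8 with a lane left out and was 6 on uniquely placed reads and 5 with the floor of 5 CPM. Besides Tnf and Tnfrsf13c, the interval reached 1 for Ltb without lane 2, Tnfrsf12a without lane 3, and Tnfrsf1b and Tnfrsf18 without lane 4. Of 153 ratios of single members over 9 settings, 149 lay inside the interval of the main ratio and 4 outside it, those of Lta and Tnfrsf13b with total-read scaling and with RPKM. No ratio whose interval excluded 1 crossed to the other side. The ratio of Klf2 ran from 10.5 to 11.6. No paired analysis was possible because the shared numbers are sequencing lanes of 1 library per group. Depth limits the 26 rows under the floor and genes such as Tnfrsf26 and Tnfsf9.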
